A study of Mus musculus with 15 samples.

Results

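The tropomodulins (*Tmod1*, *Tmod2*, *Tmod3* and *Tmod4*) and the tropomyosins (*Tpm1*, *Tpm2*, *Tpm3* and *Tpm4*) are 8 genes of the actin filament, and all 8 are among the 21727 transcripts counted in a ribosome profiling experiment on mouse embryonic stem cells (mESCs). They were chosen because the fragments of *Tmod3* were enriched when ribosomes were pulled down by a FLAG epitope tag, and the question asked of the other 7 genes, and of the proteins that bind the same filaments, was whether any of them shared that enrichment. The cells are E14Tg2a.4 mESCs. In the *Rps27-FLAG* line, represented by clones 2b12, 2c3 and 2c4, the endogenous *Rps27* gene, which encodes a protein of the small ribosomal subunit, carries a 3xFLAG tag at its C terminus on both alleles. In the *Rps27l-FLAG* line (4a2, 4a3, 4b7) its paralog *Rps27l* is tagged in the same way, and the WT clones 5a1, 5a2 and 5a3 have no tag. Ribosome-protected fragments (RPFs), the pieces of mRNA that a ribosome shields from RNase, were sequenced for each of the 9 clones (total RPFs). For the 6 tagged clones the RPFs of ribosomes captured on anti-FLAG beads were sequenced as well (IP RPFs), which makes 15 libraries with 3972152 to 8064166 counts each. An anti-FLAG IP from untagged WT cells was not analysed here. Each line is represented by 3 clones, which the labels call biological replicates, and the IP and total library of one replicate come from the same clone.

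Tropomyosins are coiled-coil proteins that lie end to end along the actin filament and set which myosins and severing proteins reach it. Tropomodulins cap the slow-growing (pointed) end of the filament, and they do so more tightly where tropomyosin is present. *Tmod1* is best known from red cells and heart, *Tmod2* from neurons and *Tmod4* from skeletal muscle, while *Tmod3* is the widely expressed form, and the tropomyosin genes each give rise to forms of muscle or of non-muscle cells.

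Among the members, *Tmod3* matches the tag at the most positions, followed by the other tropomodulins. The 8 first codons of the 3xFLAG tag, read from the repair template used to tag *Rps27*, are shown with the coding stretch of *Tmod3* that matches them best and with the aligned stretches of its relatives. Capitals mark codons whose amino acid is the one that the tag has at the same position.
tag: GACTACAAAGACcatGACggtGAT
Tmod3: GACTACAAGGACctgGATgagGAC
Tmod1: aaaTATcgaGACctgGATgagGAT
Tmod2: aaaTACAAGaacatcGACgaaGAC
Tmod4: aaaTACagaGACatcGACgaaGAT
The stretch of *Tmod3* covers residues 11 to 18 of its 352 and has the residue of the tag at 6 of the 8 positions. The stretches of *Tmod1* (residues 9 to 16), *Tmod2* (11 to 18) and *Tmod4* (10 to 17) have it at 4. A best stretch with 4 positions is common, since 2587 of the counted transcripts have one, while 6 have one with 6 positions. Counted from the first residue of *Tmod3*, and with the residue of *Tmod3* written first, *Tmod1* differs from *Tmod3* within the stretch by D11K and K13R, *Tmod2* by D11K, D14N and L15I, and *Tmod4* by D11K, K13R and L15I. All 3 relatives thus share the change at the first residue of the stretch, where *Tmod3* has the residue of the tag. Over the whole protein *Tmod3* is 73.5% identical to *Tmod2*, 61.9% to *Tmod1* and 57.4% to *Tmod4*. In the tropomyosins no stretch of 8 residues has more than 2 of the tag. Of the 333 codons of *Tmod3* over which fragments were counted, 330 (99.1%) lie after the stretch.

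The members differed widely in how much they were translated, and 5 of the 8 were measured well enough to test. The genes are compared on one scale, counts per kilobase of the counted coding sequence scaled to one fixed sum per library in the manner of TPM (per-kb level). An RPF level reflects both the amount of an mRNA and its translation, and in a bulk culture fewer expressing cells and less RNA per cell cannot be told apart. In the 9 total libraries *Tmod3* had the highest mean per-kb level of the 5 tested members, 105 ± 14.8 (SD, n = 9). The level of *Tpm3* could not be measured, for the reasons given below, so its place in this order is not known. *Tpm1* followed with 90.3 ± 19.0 and *Tpm4* with 89.3 ± 7.95, and the libraries of these 3 genes overlapped (87.9 to 127, 57.0 to 114 and 77.0 to 105). *Tpm2* stood at 47.5 ± 6.0. Its highest library (57.3) lay below the lowest of *Tpm4* and just above the lowest of *Tpm1*. *Tmod2*, the neuronal tropomodulin, stood at 7.64 ± 1.5, and its libraries (5.53 to 9.86) lay below every library of these 4 genes.

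**Figure D1:**
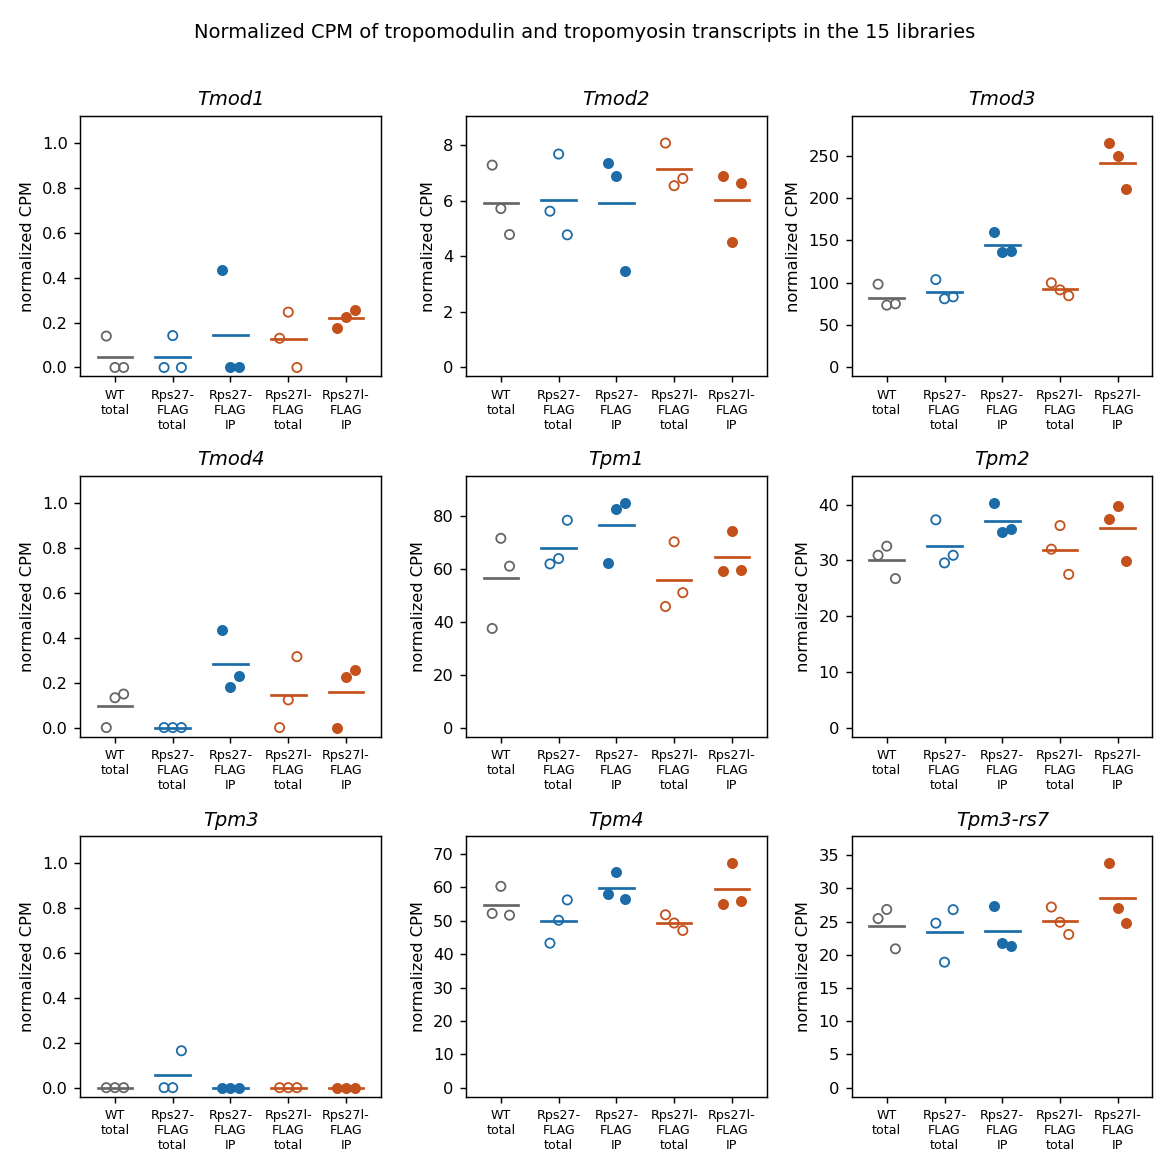
Normalized CPM (vertical axes, linear, one scale per gene) of the 8 members and of the retrogene *Tpm3-rs7* in each library of the 5 groups. Open circles are total RPFs, filled circles IP RPFs, and bars the mean of 3 clones. *Tmod3* rises from 73.6 to 104 in the total libraries to 136 to 160 and 211 to 265 in the IP libraries, *Tmod1*, *Tmod4* and *Tpm3* stay near 0, and in the other genes IP and total libraries overlap or lie close together.

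*Tmod1* had 0 to 3 counts in every library and *Tmod4* likewise 0 to 3. Their highest normalized CPM, a count scaled to the size of its library, was 0.433 in both genes, which is what 3 counts amount to in that library. The level that 3 counts stand for, below which a transcript cannot be told from absent, lies between 0.370 and 0.767 CPM across the libraries, so neither gene can be compared between groups.

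*Tpm3* had 0 counts in 14 libraries and 1 count in the other, and these values do not measure the gene. Only fragments with one place of alignment were counted, over one transcript per gene. The counted *Tpm3* transcript is the long form (858 nt of coding sequence), and of its 771 windows of 28 nt, about the length of an RPF, only 198 (25.7%) occur in no other counted transcript. The other 573 recur in *Tpm3-rs7*, a single-exon copy on chromosome 14 (GRCm38 14:113314608-113316754, plus strand). For all 4 tropomodulins, *Tpm1* and *Tpm2*, by contrast, every window was unique, and for *Tpm4* 655 of 660 were. *Tpm3-rs7* had 93 to 209 counts in the 15 libraries. Of its 660 windows 87 (13.2%) occur in no other counted transcript, so its level was not set against those of the other genes. Its coding sequence differs by 3 bases from a short form of *Tpm3* (747 nt), and one of these is shown in capitals within bases 46 to 75, since it shows how little separates the gene from its copy.
Tpm3 short form: gttctgcagcagcaagctgatgatgcGgag
Tpm3-rs7: gttctgcagcagcaagctgatgatgcAgag
Of the 87 windows 6 also occur in short forms of *Tpm3* that were not counted, so that fragments of *Tpm3* itself cannot be told apart from those of the copy there. The counts under *Tpm3-rs7* may thus come from the copy or from *Tpm3*, and they were assigned to no member here.

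The counted transcripts lie on GRCm38 as follows. *Tmod3* (ENSMUST00000072232) is at 9:75497707-75559657 on the minus strand, next to *Tmod2* at 9:75565624-75611325 on the same strand. *Tpm1* is at 9:67022590-67049406, minus strand, *Tpm2* at 4:43514712-43523388, minus strand, and *Tpm4* at 8:72135259-72153142, plus strand. *Tmod1* is at 4:46038935-46116032, *Tmod4* at 3:95124514-95129209 and *Tpm3* at 3:90072651-90100902, all on the plus strand. *Tpm1* has 16 distinct coding isoforms in the annotation, of which 1 was counted. In its other isoforms between 8.9% and 43.5% of the windows do not occur in the counted one, so that parts of those isoforms went uncounted.

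The cells carried stem cell marks. *Pou5f1*, *Nanog*, *Sox2*, *Zfp42*, *Esrrb*, *Tdgf1* and *Dppa5a* stood between 78.1 and 1146 normalized CPM in all libraries. Of the muscle markers *Myod1*, *Myog*, *Ckm* and *Tnnt3* reached at most 1.01, while *Des* stood at 5.92 to 14.9, *Myh3* at 1.15 to 6.0 and *Ttn* at 28.3 to 135. The red cell marker *Epb42* reached at most 0.225. Of the neuronal markers *Snap25* reached at most 0.691 and *Tubb3* stood at 94.6 to 125, and of the fibroblast markers *Dcn* reached at most 0.329 and *Thy1* stood at 5.29 to 24.1. Whether cells of these types take part in the levels of the tropomyosins was not tested.

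*Tmod3* was chosen on its IP values, which are given as a description without a test. In *Rps27-FLAG* it had 160, 136 and 137 normalized CPM in the IP libraries against 104, 81.2 and 83.4 in the total libraries of the same clones. In *Rps27l-FLAG* it had 265, 250 and 211 against 100.0, 91.6 and 84.7. The IP libraries of each line lay above all of its total libraries, and those of *Rps27l-FLAG* above those of *Rps27-FLAG*. The log2 ratio of IP to total, taken within each clone, was 0.63, 0.75 and 0.72 in *Rps27-FLAG* and 1.41, 1.45 and 1.31 in *Rps27l-FLAG*. By fitted log2 fold change *Tmod3* ranked 4 from the top of all tested transcripts in *Rps27-FLAG* and 1 in *Rps27l-FLAG*.

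None of the other members had IP values as far above their total values in single libraries. *Tpm4* had 58.0, 64.5 and 56.6 normalized CPM in the IP libraries of *Rps27-FLAG* against 43.3, 50.2 and 56.3 in the total libraries, and 55.0, 67.2 and 56.0 against 51.8, 49.3 and 47.1 in *Rps27l-FLAG*. Its IP and total libraries did not overlap in either line. In *Rps27-FLAG* the lowest IP library (56.6) lay just above the highest total library (56.3), and a WT total library reached 60.3. How many of all tested transcripts were separated in this way is not given here. *Tpm1* had 62.4, 82.8 and 84.9 against 61.9, 64.0 and 78.5 in *Rps27-FLAG*, and 59.1, 74.2 and 59.8 against 45.8, 70.3 and 51.1 in *Rps27l-FLAG*. *Tpm2* had 40.3, 35.2 and 35.7 against 37.3, 29.6 and 30.9, and 37.5, 39.8 and 29.9 against 32.0, 36.3 and 27.5. For both genes the IP libraries overlapped the total libraries in each line. *Tmod2* had 7.36, 6.89 and 3.45 against 5.62, 7.67 and 4.77, and 6.90, 4.50 and 6.64 against 8.07, 6.54 and 6.80, and overlapped as well.

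Within single clones the tropomyosins leaned one way and *Tmod2* did not. The log2 ratios of *Tmod2* in single clones were 0.39, -0.15 and -0.44 in *Rps27-FLAG* and -0.22, -0.52 and -0.02 in *Rps27l-FLAG*. *Tmod2* thus lay below 0 in 5 of the 6 clones. *Tmod2* rested on 15 to 62 counts per library, and its single-clone ratios spread more widely than those of any other tested member. The ratios of *Tpm1* were 0.01, 0.37 and 0.11 in *Rps27-FLAG* and 0.37, 0.08 and 0.23 in *Rps27l-FLAG*. Those of *Tpm2* were 0.11, 0.25 and 0.21, and 0.23, 0.14 and 0.12. Those of *Tpm4* were 0.42, 0.36 and 0.01, and 0.09, 0.45 and 0.25. The 3 tested tropomyosins were therefore above 0 in all 6 clones, and their highest single clone (0.45) was below the lowest clone of *Tmod3* (0.63). Of all 10085 tested transcripts, 4872 had a fitted log2 fold change above 0 in *Rps27-FLAG* and 4411 in *Rps27l-FLAG*. Among them *Tpm1*, *Tpm2* and *Tpm4* stood at percentiles 79.9, 82.9 and 94.0 in the first line and 90.8, 85.9 and 95.5 in the second. How many transcripts lay above 0 in every clone is not given here.

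**Figure D2:**
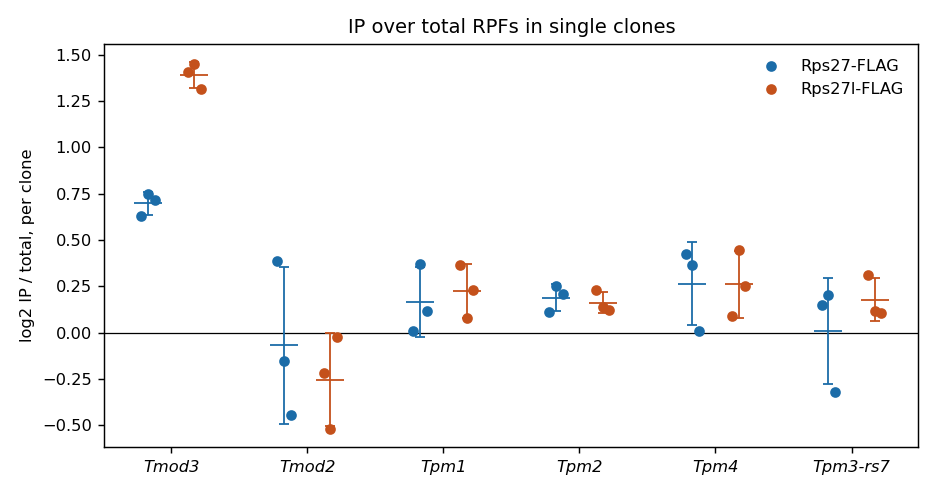
Log2 ratio of IP to total RPFs (vertical axis) in each of the 3 clones of *Rps27-FLAG* (blue) and *Rps27l-FLAG* (orange) for the tested members and *Tpm3-rs7*. Horizontal marks are means and error bars the SD of 3 clones. *Tmod3* stands apart at 0.63 to 0.75 and 1.31 to 1.45, the tropomyosins lie between 0.01 and 0.45, and *Tmod2* spreads around 0.

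In edgeR's quasi-likelihood test over all 10085 tested transcripts, with Benjamini-Hochberg adjustment and a threshold of 0.05, 0 of the 4 tested members other than *Tmod3* passed in *Rps27-FLAG*, where the IP RPFs were higher for 0.327% and lower for 5.34% of all tested transcripts. DESeq2 and voom also called 0 of the 4. *Tpm4* had the highest log2 fold change of the 4, 0.26 (95% interval 0.0058 to 0.52, adjusted p = 0.218 in edgeR). It was the 1 of the 4 with an unadjusted p under 0.05, beside 2230 of all 10085 tested transcripts. *Tpm2* had 0.19 (-0.09 to 0.46, adjusted p = 0.411) and *Tpm1* 0.17 (-0.15 to 0.49, adjusted p = 0.531). *Tmod2* had -0.0015 (-0.74 to 0.74, adjusted p = 0.999), so that at its depth an effect of the size fitted for *Tmod3*, 0.69, lay within its interval.

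In *Rps27l-FLAG* again 0 of the 4 passed in edgeR, DESeq2 or voom, where edgeR found 0.833% of all tested transcripts higher and 2.27% lower. *Tpm4* had a log2 fold change of 0.26 (0.03 to 0.50, adjusted p = 0.229 in edgeR). It was again the 1 of the 4 with an unadjusted p under 0.05, beside 1752 of all 10085 tested transcripts. *Tpm1* had 0.20 (-0.18 to 0.59, adjusted p = 0.617), *Tpm2* 0.16 (-0.17 to 0.50, adjusted p = 0.653) and *Tmod2* -0.24 (-0.75 to 0.26, adjusted p = 0.666). The highest upper limit among them, 0.59, was less than the 1.39 fitted for *Tmod3*. *Tpm3-rs7* had 0.01 (adjusted p = 0.979) in *Rps27-FLAG* and 0.19 (adjusted p = 0.571) in *Rps27l-FLAG*.

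Each IP library has a total library from the same clone, and a fit with clone as a block changed the calls of the tropomyosins. With this block 2 of the 4 members passed in each line, *Tpm1* and *Tpm4*, both higher in the IP RPFs. *Tpm4* had 0.28 (adjusted p = 5.37e-05 in edgeR) in *Rps27-FLAG* and 0.26 (adjusted p = 0.00169) in *Rps27l-FLAG*, and *Tpm1* had 0.17 (adjusted p = 0.0094) and 0.21 (adjusted p = 0.0063). *Tpm2* did not pass (adjusted p = 0.0594 and 0.120), nor did *Tmod2* (0.964 and 0.334). The block calls a large part of all tested transcripts, 18.3% higher and 22.9% lower in *Rps27-FLAG* and 12% higher and 19% lower in *Rps27l-FLAG*. The sizes moved little with the block, and the highest log2 fold change of a tropomyosin was 0.28, against 0.69 and 1.40 for *Tmod3*.

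The IP effects of some partner groups went with the length of the coding sequence, and those of others did not. The 10 tested genes of filament turnover, with a median length of 499.5 nt, had medians of 0.17 (*Rps27-FLAG*) and 0.20 (*Rps27l-FLAG*) on the log2 scale, and the 6 formins, with a median of 3555 nt, had -0.14 in both. Myosin II (3201 nt) had -0.18 and -0.15. The spectrin skeleton, with the longest median (4716 nt), had 0.01 and 0.02, and the cross-linkers (2709 nt) had 0.05 in both. The Arp2/3 complex (903 nt) had 0.05 and 0.06. A measure of the trend over all tested transcripts is not given here. The 3 tested tropomyosins (747 to 855 nt) lie below the median length of all tested transcripts, 1440 nt. With the trend with coding length removed from each library, the log2 fold changes of *Tpm1*, *Tpm2* and *Tpm4* were 0.11, 0.13 and 0.18 in *Rps27-FLAG* and 0.18, 0.14 and 0.22 in *Rps27l-FLAG*, while those of *Tmod3* were 0.68 and 1.40. With the trend removed and clone as a block at once, an alternative chosen after seeing the data, *Tpm4* still passed in both lines (adjusted p = 0.00655 and 0.0158 in edgeR). *Tpm1* did in *Rps27l-FLAG* (adjusted p = 0.0247) and not in *Rps27-FLAG* (adjusted p = 0.130). The block alone called 18.3% of all tested transcripts higher and 22.9% lower in *Rps27-FLAG*, and 12% and 19% in *Rps27l-FLAG*. The share called with the trend removed as well is not given here, so these calls are not read as particular to the tropomyosins.

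**Figure D3:**
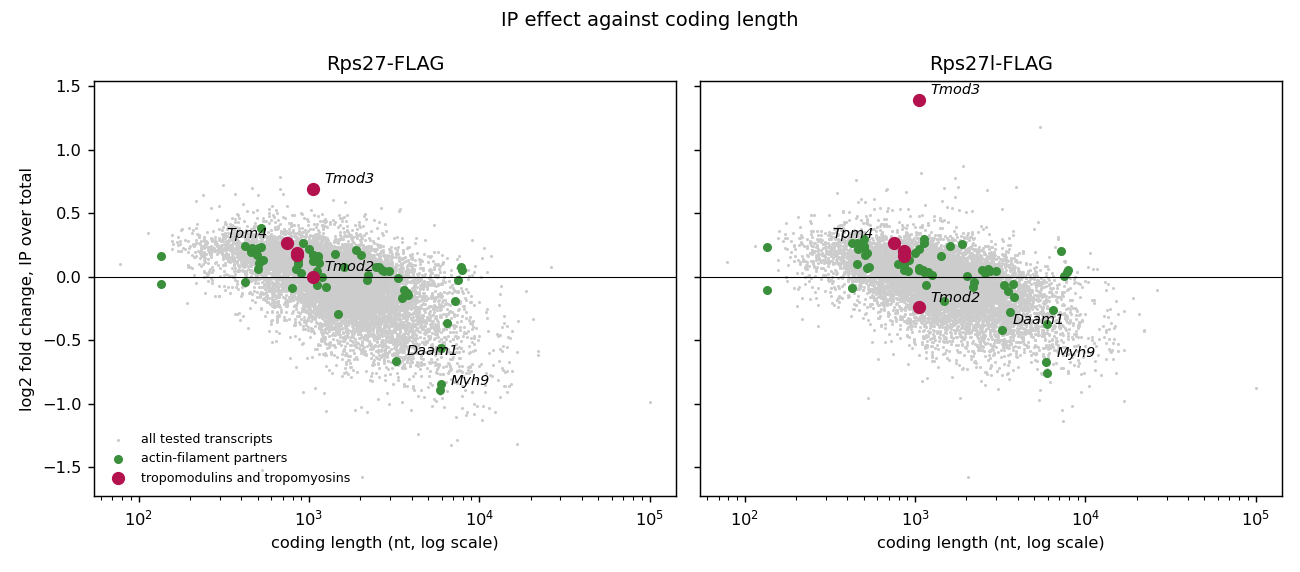
Log2 fold change of IP over total RPFs (vertical axis) against the length of the coding sequence (horizontal axis, nt, log scale) for all tested transcripts (grey), the 57 tested actin-filament partners (green) and the 5 tested members (red), in each tagged line. The tropomyosins lie within the band of short transcripts, *Tmod3* above it at 0.69 and 1.39, and the long *Myh9* and *Daam1* at its lower side.

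The IP effects of the lines were compared in a fit of the 12 libraries of the tagged lines with clone within cell line as a term. Of the 4 members 0 passed, where 1.36% of all tested transcripts had a higher and 0.139% a lower effect in *Rps27l-FLAG*. The differences (*Rps27l-FLAG* minus *Rps27-FLAG*) were 0.05 (95% interval -0.12 to 0.22, adjusted p = 0.901 in edgeR) for *Tpm1*, -0.01 (-0.24 to 0.21, adjusted p = 0.987) for *Tpm2*, -0.02 (-0.21 to 0.16, adjusted p = 0.969) for *Tpm4* and -0.27 (-0.81 to 0.27, adjusted p = 0.773) for *Tmod2*. At an unadjusted p under 0.05 there were also 0 of the 4, beside 1217 of all 10085 tested transcripts, and DESeq2 and voom called 0. For *Tmod3*, whose IP values chose it, the fitted difference was 0.71 with a standard error of 0.059, given here without a test. It ranked 21 from the top of all tested transcripts. The upper limits of the tropomyosins were 0.16 to 0.22.

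Between the lines the total RPFs of the members did not differ past the threshold. This comparison was not used to choose them, so *Tmod3* was tested with the others. Of the 5 tested members 0 passed in *Rps27-FLAG* over WT, *Rps27l-FLAG* over WT or *Rps27l-FLAG* over *Rps27-FLAG*, and 0% of all tested transcripts did in either direction of any of these comparisons. DESeq2 and voom also called 0 members. Before adjustment 294, 574 and 580 transcripts had a p under 0.05, and 0 of them were members. *Tmod3* had 0.12 (95% interval -0.17 to 0.41, adjusted p = 0.999 in edgeR) in *Rps27-FLAG* over WT and 0.16 (-0.13 to 0.45, adjusted p = 0.840) in *Rps27l-FLAG* over WT. In WT its libraries held 98.4, 73.6 and 75.1 normalized CPM, and the highest of them lay within the range of the tagged lines (81.2 to 104) while the others lay below it. *Tpm1* varied most of the tested members among the total libraries, from 37.5 to 78.5 normalized CPM, and had -0.29 (-0.78 to 0.21, adjusted p = 0.813) in *Rps27l-FLAG* over *Rps27-FLAG*. With the replicate number as a block 0 members passed in all 3 comparisons, where 0.00992%, 1.43% and 1.36% of the tested transcripts did.

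The levels of *Tmod3* and *Tpm1* moved with the replicate number. By the methods, fragments of one replicate were pooled during library preparation, and the number also stands for different clones, so that preparation and clone cannot be told apart. In all 5 groups the library of replicate 1 had the highest *Tmod3* level and the lowest *Tpm1* level. In WT, for example, *Tpm1* had 37.5 normalized CPM in replicate 1 and 71.6 and 61.1 in the others. The ratio of IP to total within a clone sets libraries of one replicate against each other. No such order appeared for *Tpm4*, whose replicate 1 was highest in 1 group and lowest in 2.

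*Tmod3* was also set against the whole table by how its level moved. Over the 15 libraries the 5 tested transcripts with the highest Pearson r of log2 normalized CPM to *Tmod3* were *Thoc7*, a subunit of the complex that couples transcription to mRNA export (0.97), *Calm2*, one of the calmodulin genes (0.96), *Pebp1*, a Raf kinase inhibitor protein (0.93), *Atp5o*, a subunit of the ATP synthase (0.92), and *Nap1l4*, a histone chaperone (0.92). The libraries share clones, preparation pools and the IP step, so these values are a description. Of the members, *Tpm2* came closest with 0.61, followed by *Tpm4* with 0.49, *Tpm1* with 0.14 and *Tmod2* with -0.04. Over the 9 total libraries the highest were *Itga8* (0.98), *Tbc1d10b* (0.97) and *Hunk* (0.96), and the members stood at 0.58 for *Tpm2*, 0.44 for *Tmod2*, -0.52 for *Tpm1* and -0.59 for *Tpm4*. None of the transcripts named by this rule is among the actin-filament partners listed below. Those are only 57 of the 10085 tested transcripts, so their absence from so few names says little.

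The partners of the members were taken as 78 actin-filament genes in 11 groups, of which 57 were tested. In *Rps27-FLAG* 5 of the 57 passed, all lower in the IP RPFs, which is 8.77% beside 5.34% of all tested transcripts. In *Rps27l-FLAG* 2 were lower (3.51% beside 2.27%) and 1 was higher (1.75% beside 0.833%). The median log2 fold change of the 57 was 0.06 in *Rps27-FLAG* and 0.05 in *Rps27l-FLAG*, against -0.01 and -0.03 for all tested transcripts, and the highest partner reached 0.38 and 0.30. *Tmod3* had 0.69 and 1.39. The counts of partners rested on single clones. Without replicate 2 or without replicate 3 of *Rps27-FLAG* 0 partners passed there, without its replicate 1 there were 14, and without replicate 1 or 2 of *Rps27l-FLAG* 0 passed in that line. The share of all tested transcripts called in these fits is not given here. Whether the swing is particular to the partners was not tested. With the clone as a block 31 partners passed in *Rps27-FLAG*, 22 of them higher, and 23 in *Rps27l-FLAG*, 16 of them higher, where the block called 18.3% of all tested transcripts higher and 22.9% lower in the first line and 12% and 19% in the second.

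The partners that fell were led by the myosin heavy chains. The non-muscle myosin II heavy chains pull on the filaments that tropomyosins coat. *Myh9* fell by 0.89 on the log2 scale in *Rps27-FLAG* (adjusted p = 7.83e-04 in edgeR) and by 0.67 in *Rps27l-FLAG* (adjusted p = 0.00334), and *Myh10* fell by 0.85 (adjusted p = 0.00859) and by 0.76 (adjusted p = 0.0107). *Myh14* fell by 0.56 in *Rps27-FLAG* (adjusted p = 0.0294) and had -0.37 (adjusted p = 0.310) in *Rps27l-FLAG*. The coding sequences of these 3 are 5883 to 5979 nt long. The light chains *Myl6*, *Myl9* and *Myl12a*, short proteins of the same motor, had 0.20, 0.38 and 0.24 in *Rps27-FLAG* and 0.27, 0.07 and 0.19 in *Rps27l-FLAG*, none past the threshold. *Daam1*, a formin that elongates filaments, fell by 0.66 (adjusted p = 0.00312) and *Fscn1*, the bundling protein fascin, fell by 0.29 (adjusted p = 0.0182), both in *Rps27-FLAG*. In *Rps27l-FLAG* their values were -0.42 (adjusted p = 0.161) and -0.19 (adjusted p = 0.196). *Cfl1*, which encodes the filament-severing protein cofilin, was the one partner that rose, by 0.30 (adjusted p = 0.0190) in *Rps27l-FLAG*, with 0.22 (adjusted p = 0.218) in *Rps27-FLAG*.

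With the trend with coding length removed, *Myh9* in *Rps27-FLAG* (-0.54, adjusted p = 0.0433 in edgeR) was the 1 partner that still passed. In *Rps27l-FLAG* 0 did, with -0.39 (adjusted p = 0.0657) for *Myh9*. The share of all tested transcripts called with the trend removed is not given here, so the drop is not read as particular to the partners. Between the lines *Myh9* alone of the 57 differed, with an IP effect higher by 0.22 in *Rps27l-FLAG* (adjusted p = 6.10e-04 in edgeR). With the length trend removed that difference was 0.16 (adjusted p = 0.0560), and without clone as a term it did not pass.

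**Figure D4:**
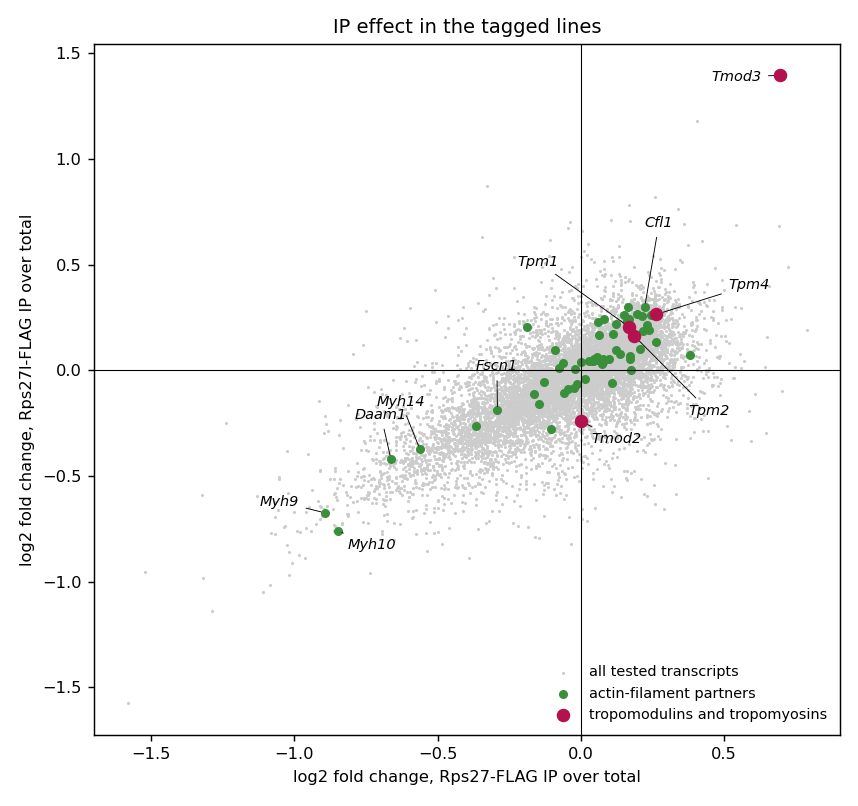
Log2 fold change of IP over total RPFs in *Rps27l-FLAG* (vertical axis) against that in *Rps27-FLAG* (horizontal axis) for all 10085 tested transcripts (grey), the 57 tested partners (green) and the 5 tested members (red). *Tmod3* lies alone at 0.69 and 1.39, *Tpm1*, *Tpm2* and *Tpm4* lie among the partners near 0.2, and *Myh9*, *Myh10*, *Myh14*, *Daam1* and *Fscn1* lie on the lower side.

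In the fit by fraction alone the other groups of partners held few or no calls. Both tested actins, *Actb* and *Actg1*, which build the filament itself, had 0.15 and 0.17 in *Rps27-FLAG* and 0.26 and 0.30 in *Rps27l-FLAG*, none past the threshold. Of the 8 tested capping, severing and end-binding genes 0 passed in either line in edgeR, with 0 and 1 at an unadjusted p under 0.05. They include *Capza1*, *Capza2* and *Capzb*, whose products cap the opposite end of the filament from the tropomodulins, with 0.12, 0.10 and 0.06 in *Rps27-FLAG* and 0.09, 0.05 and 0.17 in *Rps27l-FLAG*. Of the 10 genes of filament turnover 1 passed, *Cfl1* in *Rps27l-FLAG*. Of the 6 tested spectrin skeleton genes, of the 9 of the Arp2/3 complex and of the 4 tested among caldesmon, calponins and troponins, 0 passed, with 1 each at an unadjusted p under 0.05 in either line. The 3 leiomodins, which are the closest relatives of the tropomodulins, and the 3 nebulins were too low to test. The leiomodins had mean levels of 0.814, 0.0592 and 0.136 normalized CPM in the total libraries. With the clone as a block more passed. Both actins did in each line, and 7 (*Rps27-FLAG*) and 6 (*Rps27l-FLAG*) of the 10 turnover genes, all higher in the IP RPFs. Of the 9 Arp2/3 genes 4 and 2 were higher and 1 and 0 lower. Of the 8 capping genes 3 and 1 were higher. Of the 6 spectrin genes 1 was lower in each line, and 3 and 2 of the 6 formins were. The block called 18.3% and 12% of all tested transcripts higher, and 22.9% and 19% lower. In the total RPFs 0 partners passed between the lines in edgeR, DESeq2 or voom. An unadjusted p under 0.05 was found for 2, 3 and 5 of the 57 in *Rps27-FLAG* over WT, *Rps27l-FLAG* over WT and *Rps27l-FLAG* over *Rps27-FLAG*. Of all 10085 tested transcripts 294, 574 and 580 had one. With the replicate number as a block 2 partners passed in *Rps27l-FLAG* over WT (*Epb41l2* and *Diaph1*) and 3 in *Rps27l-FLAG* over *Rps27-FLAG* (*Epb41l2*, *Diaph1* and *Sptan1*), all lower in *Rps27l-FLAG*, where 1.43% and 1.36% of all tested transcripts passed.

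The other tested transcripts whose proteins match the tag at as many positions as *Tmod3* did not pass the threshold in the fit by fraction alone. Only the first 8 residues of the tag were compared, whichever positions matched. Which positions match in the other proteins is not given here, so an equal count need not mean an equal resemblance. The best ungapped stretch of 8 residues matched the tag at 6 positions in 6 proteins of the table, of which 5 were tested: *Tmod3*, *Tfg*, *Thbs1*, *Tenm4* and *Armh4*. *Tfg*, a protein of the endoplasmic reticulum exit sites, has its stretch from residue 57 of 397 and had log2 fold changes of 0.09 (adjusted p = 0.346 in edgeR) in *Rps27-FLAG* and 0.16 (adjusted p = 0.394) in *Rps27l-FLAG*. *Thbs1*, a secreted matrix protein, has it from residue 918 of 1171 and had -0.25 (adjusted p = 0.113) and -0.03 (adjusted p = 0.972). *Tenm4*, a transmembrane protein, has it from residue 904 of 2833 and had -0.48 (adjusted p = 0.492) and -0.49 (adjusted p = 0.569). The 97 tested transcripts with 5 positions had median log2 fold changes of -0.05 and -0.08 and reached at most 0.36 and 0.31, and 9 and 6 of them were called, all lower in the IP RPFs, beside 0.327% higher and 5.34% lower and 0.833% higher and 2.27% lower of all tested transcripts. Their median coding length was 2235 nt, against 1440 nt for all tested transcripts. Among the stretches of these 5 proteins that of *Tmod3* lies nearest to the start of the protein. With the clone as a block *Tfg* passed in both lines, with 0.10 (adjusted p = 0.0134) and 0.16 (adjusted p = 2.77e-04), *Thbs1* was lower in *Rps27-FLAG* (adjusted p = 3.82e-04) and *Tenm4* was lower in both (adjusted p = 8.96e-12 and 1.71e-07). The 3 tested tropomyosins have 2 positions at most and *Tmod2* has 4. Whether the stretch plays a part in the IP values of *Tmod3* was not tested.

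**Figure D5:**
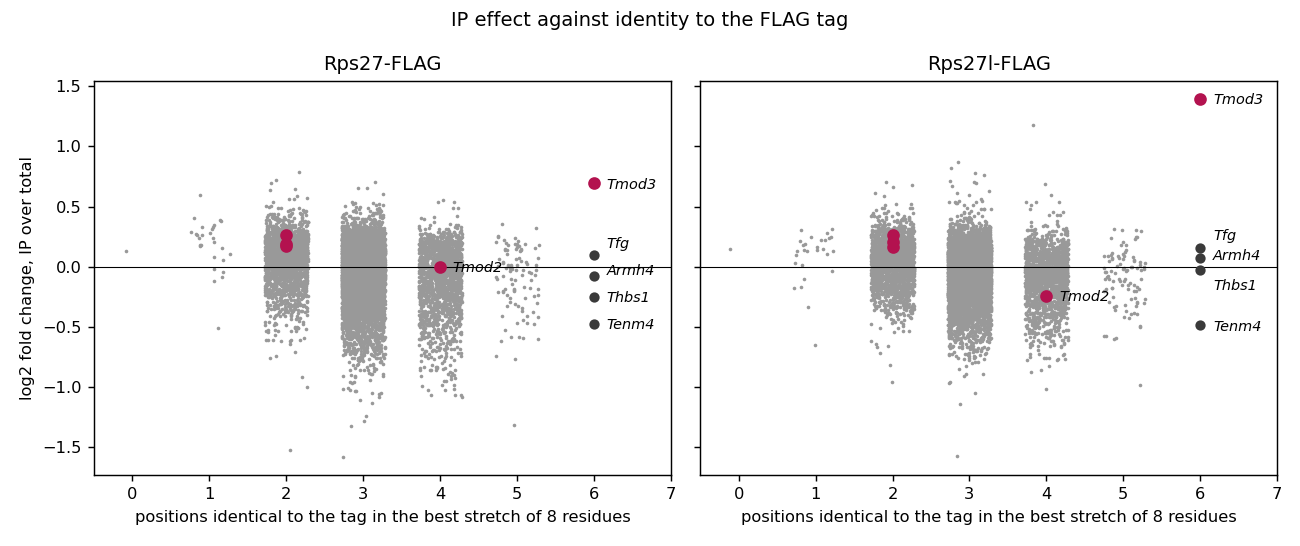
Log2 fold change of IP over total RPFs (vertical axis) against the number of positions identical to the tag in the best stretch of 8 residues (horizontal axis, points spread sideways within each number) for the tested transcripts in each tagged line. Red points are the members and black points the transcripts with 6 positions, among which *Tmod3* at 0.69 and 1.39 lies above *Tfg*, *Armh4*, *Thbs1* and *Tenm4*.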

How the data were processed

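The authors deposited raw counts of 21727 transcripts in the 15 libraries, and 0 columns were left out. According to the submitters' processing notes and the methods, the authors trimmed reads with cutadapt 2.4, removed duplicates by molecular identifiers with UMI-tools 1.0.1, aligned with Bowtie2 2.3.4.3 to GRCm38 transcripts, kept unique alignments and counted A sites over each coding sequence without its first 15 and last 5 codons. One transcript per gene was counted. Coding sequences, positions and proteins came from GENCODE M21, which holds 21713 of them. The proteins were translated from it, since the RefSeq proteins first planned were not used here.

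After removal of 13 mitochondrially encoded transcripts, the 10085 with over 2 CPM in 14 or more of the 15 libraries were tested by the quasi-likelihood method of edgeR 4.0.16 (R 4.3.3), with TMM factors set separately for the IP and the total libraries. Standard errors are the log2 fold change over the square root of its F statistic, and 95% intervals use the t quantile of the test's degrees of freedom. Normalized CPM use the library size times its TMM factor, and the ratios of single clones use 0.5 added counts. IP was compared with total within a line by fraction alone, the IP effects between lines with clone within line, and total RPFs by line, as in the study. Same-numbered IP and total libraries are from one clone by the labels, and their deviations from the group means correlated with r between 0.47 and 0.79 in all 6 clones. Between libraries of one group chi-squared over its degrees of freedom was at least 1.79, so none is a copy. Alternatives used voom and limma 3.58.1, DESeq2 1.42.0, other normalizations and filters, blocks, the loess trend (span 0.5) with coding length and each clone left out. One alternative, the clone as a block with the length trend removed, was chosen after seeing the data. The tests were checked on simulated data. Depth was 3972152 to 8064166 counts per library, and the floor of 3 counts covers counting error only.

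The members, the partner list and the tests were chosen with earlier results of these data known. Named are all members, partners past the threshold in an IP comparison or their difference (up to 10), the 5 and 3 transcripts most correlated with *Tmod3* and the 3 most abundant with as many tag positions. *Epb41l2*, *Diaph1*, *Sptan1*, *Armh4* and the examples of partner groups were named after their values were seen. Figures were drawn with matplotlib 3.10.9 under Python 3.11.15, and tables handled with pandas 2.3.3.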

Additional observations from a re-analysis of the deposited data

Results flagged for a closer look

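The IP effect of *Myh9*, the non-muscle myosin heavy chain that fell in both lines, differed between the lines in the fit with clone within cell line, by 0.22 on the log2 scale (adjusted p = 6.10e-04 in edgeR), higher in *Rps27l-FLAG*. It was the one partner of the 57 tested that did. Its coding sequence is 5883 nt long, and with the trend with coding length removed the difference was 0.16 (adjusted p = 0.0560).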

How the results depend on the processing

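Over all alternatives tried, 36 of 415 values of the 5 tested members turned their sign. *Tmod2* turned its sign in *Rps27-FLAG* IP over total. It had 0.013 with DESeq2, 0.024 with DESeq2 size factors and 0.00074 without a filter. It had 0.014 with the clone as a block and 0.012 with TMM over all libraries. In the difference of the IP effects *Tpm4* turned to 0.0013 without clone as a term. With the length trend removed *Tpm2* turned to 0.017 and *Tpm4* to 0.0070 in that difference. In total RPFs with voom *Tpm1* turned to 0.0071 in *Rps27l-FLAG* over WT. With voom *Tpm4* turned to 0.0064 in *Rps27l-FLAG* over *Rps27-FLAG*. *Thbs1* in *Rps27l-FLAG* turned to 0.0069 with DESeq2 and 0.0050 with its size factors. It turned to 0.17 with the length trend removed and 0.17 with the clone as a block as well.

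The pairing of IP and total by clone moved the counts most. With the clone as a replicate block 2 of the 4 tested members other than *Tmod3* passed in *Rps27-FLAG* and 2 in *Rps27l-FLAG*, and 1 and 2 with the length trend removed as well. Of the partners 31 and 23 passed with the block, 1 and 0 with the length trend removed, and 25 and 24 with both. In *Rps27l-FLAG* 6 passed with DESeq2 and 5 with its size factors. In the difference of the IP effects 2 partners passed with voom, 2 without a filter and 0 without clone as a term. With the replicate number as a block 2 passed in *Rps27l-FLAG* over WT and 3 in *Rps27l-FLAG* over *Rps27-FLAG*. Shares of all tested transcripts called with the block and the length trend removed at once are not given here. The cause of these moves was not tested.

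With each clone left out in turn, 0 of these 4 members passed in any IP comparison, and 0 of the 5 with *Tmod3* in total RPFs, and the partners called ranged from 0 (without replicate 2 or 3) to 14 (without replicate 1) in *Rps27-FLAG*, from 0 (without replicate 1 or 2) to 4 in *Rps27l-FLAG*, and from 1 to 2 (without *Rps27-FLAG* replicate 2) in the difference. The share of all tested transcripts called without each clone is not given here. Log2 fold changes ranged from -0.24 to 0.11 for *Tmod2* in *Rps27-FLAG*. In the difference they ranged from -0.035 to 0.15 for *Tpm1*, -0.063 to 0.021 for *Tpm2* and -0.13 to 0.079 for *Tpm4*. In *Rps27-FLAG* over WT total RPFs they ranged from -0.18 to 0.20 for *Tmod2* and -0.0020 to 0.27 for *Tmod3*. In *Rps27l-FLAG* over WT they ranged from -0.25 to 0.18 for *Tpm1* and -0.014 to 0.18 for *Tpm2*. In *Rps27l-FLAG* over *Rps27-FLAG* they ranged from -0.13 to 0.083 for *Tpm2*, -0.10 to 0.082 for *Tpm4* and -0.025 to 0.16 for *Tmod3*.

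The 3 clones per group limit every test. *Tmod1*, *Tmod4* and *Tpm3* could not be compared at this depth and with this counting, and exons of uncounted tropomyosin isoforms were not measured. The anti-FLAG IP has no library from untagged cells here, so binding of the antibody to anything other than the tagged ribosomal proteins was not tested.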
